A study of Mus musculus with 16 samples.

Results

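The proteins of the cytosolic ribosome were followed in mouse CD8 T cells at the level of their mRNAs. Members were every array probe whose gene name in the scanner files matched the naming pattern of large subunit (Rpl) or small subunit (Rps) proteins, or was Rplp0, Rplp1, Rplp2, Rpsa or Arbp, the older name of Rplp0. This gave 136 of 41174 probes, for 80 of 27670 named genes. A filter on low signal kept probes that the scanner software called well above background on 3 or 4 arrays of some group. It left 134 member probes and 79 member genes to test, among 27375 probes and 18424 genes in all. The probe not kept for Rps2, 1 of several, was above background on 0 arrays, and Rpl3l is described with the relatives.

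Female C57BL/6N mice, 7 weeks old, gave the CD8+Thy1.2+ cells, which were sorted by flow cytometry as CD44lo (naive) or CD44hi (memory phenotype). Memory is thus defined by CD44 alone, without a known antigen. All 4 groups were held for 4 h in culture, either in medium alone (resting) or in medium with 10 ng/mL PMA and 500 ng/mL ionomycin (stimulated). PMA and ionomycin act on protein kinase C and calcium, downstream of the T cell receptor, so no antigen or receptor engagement was part of the stimulus. Each group had 4 arrays, from a purification and stimulation done 4 separate times, and about 200 ng of RNA went into each labelling. The design asked how the 2 cell types differ before and after stimulation, and how each responds.

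Cytosolic ribosomes are built from 2 subunits, each a ribosomal RNA core dressed with proteins, most of which are made in equal amounts. Their mRNAs are among the most abundant of a cell, and most begin with a C followed by a run of pyrimidines, the terminal oligopyrimidine (TOP) tract, through which mTOR and Larp1 set their translation and stability. T cells enlarge and raise protein synthesis soon after activation, and much of the control of ribosomal proteins in that step is known to lie in translation. Many ribosomal protein genes also carry small nucleolar RNAs in their introns, and several have a diverged relative, such as Rpl7l1, Rpl22l1 and Rps27l.

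The tract is shown for 3 members whose annotated start lay in one, beside the 3 relatives. These members were picked as examples, and a link between tract and response was not tested. Rpl22, a standard protein, had no tract at its annotated starts. Each line gives 10 bases before and 20 bases from the annotated start, 5′ to 3′, and capitals mark the longest pyrimidine run that begins with C, holds at least 5 bases and reaches or follows the annotated start, where there is one. Runs that end before that start are left in lower case.
Rps27: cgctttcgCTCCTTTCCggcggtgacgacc
Rps6: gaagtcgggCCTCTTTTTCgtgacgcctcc
Rpl28: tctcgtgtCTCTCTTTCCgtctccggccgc
Rps27l: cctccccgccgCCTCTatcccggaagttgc
Rpl22l1: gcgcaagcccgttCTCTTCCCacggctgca
Rpl7l1: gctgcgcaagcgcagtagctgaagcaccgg
These RefSeq windows (GRCm38.p6) lay at chr3:90213629-90213658 (minus strand, Rps27), chr4:86857348-86857377 (minus, Rps6), chr7:4792955-4792984 (plus, Rpl28), chr9:66946076-66946105 (plus, Rps27l), chr3:28805498-28805527 (plus, Rpl22l1) and chr17:46782637-46782666 (minus, Rpl7l1). Rps27l has a second annotated start, not shown, with no such run. RefSeq promoter windows were matched for 60 of the 80 members. A C at the annotated start followed by at least 4 pyrimidines was found in 13 of the 60 (21.7%) and in 813 of all 27025 genes (3.0%). Annotated starts are often a few bases off, so these shares describe the annotation. In the 300 bases around the start, read on both strands, CCGGAAG (the core bound by GABP and other ETS factors) was found in 40.0% of the members and in 9.9% of all genes. AAGATGG, the YY1 core, which can share its AAG with the end of the ETS core, was found in 16.7% and 7.3%. The pyrimidine-rich words CTTTCC and CTTTTCC were found in 51.7% and 16.7% of the members, against 29.3% and 9.3% of all genes.

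Between 59.3% and 66.5% of the spots were well above background per array, 97.9% to 98.6% of the member spots were, and no member spot was saturated. The 4 arrays of a group shared 1 slide and 1 scan and no other group was on it, so slide and group cannot be told apart in any comparison here. Cd44 followed the sort: in units of each array's 75th percentile signal, it was 0.60 to 0.737 in resting naive and 10.4 to 12.2 in resting memory cells. All 7 T cell markers tested, Cd8a and Cd3e among them, were well above background on every array. Their summed signal, in the same units, was 346 to 498 in resting and 226 to 310 in stimulated naive cells. In memory cells it was 358 to 400 at rest and 274 to 332 after stimulation. The summed signal of 7 monocyte, macrophage and neutrophil markers, also relative to the 75th percentile, was 8.04 to 13.8 in resting naive and 12.9 to 21.4 in resting memory cells. It was lower after stimulation, at 1.54 to 3.08 and 2.75 to 4.33. The summed signal of the 4 B cell markers went the same way, from 1.62 to 2.19 in resting naive cells to 0.205 to 0.396 after stimulation. In memory cells the sum went from 1.29 to 1.56 to 0.176 to 0.244. The summed signal of the 2 NK cell markers was highest in resting memory cells, at 0.422 to 0.924. Ncr1, 1 of the 2, had a mean log2 level of -5.70 there and -5.41 in stimulated memory cells. That of the 4 dendritic cell markers ranged from 0.877 to 8.43 in sum over the groups, and Cd4 stayed at or below 0.0729. The part of these cells in the results was not tested. In such bulk samples fewer cells of a type and less RNA per cell cannot be told apart.

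The members took a smaller share of the signal after stimulation, a difference that missed the threshold once adjusted. Member probes carried 14.6% to 16.6% of all non-control signal in resting naive cells and 15.3% to 16.5% in resting memory cells, and the groups overlapped. After stimulation the share was 12.4% to 13.7% in naive and 12.7% to 13.6% in memory cells, below every resting array. The mean share changed from 15.5% ± 0.864 (SD, n = 4) to 13.0% ± 0.558 in naive cells and from 15.9% ± 0.525 to 13.2% ± 0.384 in memory cells. The exact two-sided permutation p was 0.0286 for each, the smallest that 4 against 4 arrays allow, and 0.0571 after adjustment over 4 comparisons. The share is a fraction of a total that other very bright genes also set: the 99th percentile of signal was 33200 to 37676 on the resting arrays and 47137 to 56212 on the stimulated arrays.

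Set on each array's 75th percentile, the same genes looked slightly higher after stimulation. The median of the 79 members, as a log2 level above the 75th percentile, was 7.93 ± 0.17 in resting naive and 8.09 ± 0.15 in stimulated naive cells (SD, n = 4 each). In memory cells it was 7.90 ± 0.13 and 8.14 ± 0.11. By limma, 18 of 79 members (22.8%) rose and 1 (1.3%) fell in naive cells at an adjusted p below 0.05, against 38.2% and 30.9% of all genes tested. In memory cells 31 (39.2%) rose and 0 fell, against 31.3% and 39.1% of all genes. At the gene level the members' median log2 change was 0.17 in naive and 0.25 in memory cells, beside 0.15 and -0.16 over all genes. The direction of these small changes rests on the scaling. Under quantile normalization 3 members rose and 28 fell in naive cells, and 4 rose and 24 fell in memory cells. Of all 18424 genes, 6369 rose and 6421 fell in naive cells under that scaling, and 5719 and 6976 in memory cells. On the authors' deposited values the member counts were 4 and 34, and 3 and 40. Over 18405 genes they were 6119 and 6503, and 5551 and 7043. Spike-in probes in place of the percentile gave 20 and 0, and 68 and 0, for the members. Over all 18424 genes they gave 7213 and 4521, and 6505 and 5013. Without resting naive array 2 or 3 or stimulated naive array 2, 3 or 4, the number higher in naive cells was 9, 5, 8, 10 and 6, and without resting memory array 2 the number in memory cells was 20. A rise or fall of the family therefore cannot be stated from these arrays.

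**Figure D1:**
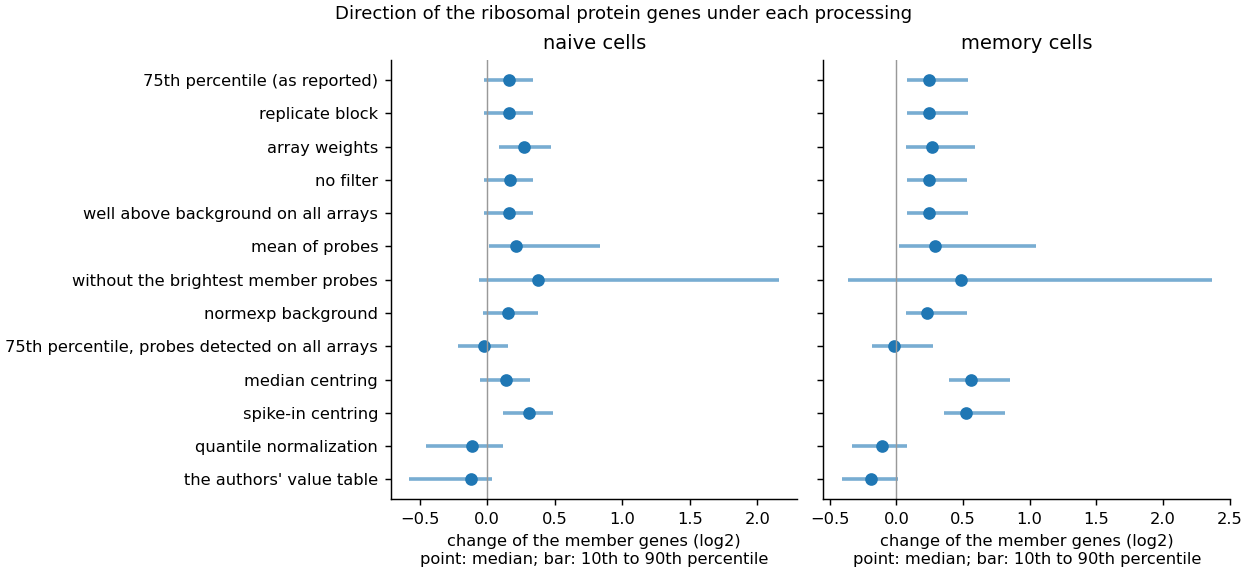
Change of the tested member genes between stimulated and resting cells (log2, x axis) under each way of processing (y axis), in naive and memory cells, each group of 4 arrays; points are medians over members and bars run from the 10th to the 90th percentile. The median was 0.17 and 0.25 as reported, -0.11 in both cell types under quantile normalization, and 0.31 and 0.52 on spike-ins.

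The members kept close together. Of the 79 members, 74 (93.7%) changed by less than 0.5 on the log2 scale in naive cells and 67 (84.8%) in memory cells. Over all genes tested 32.4% and 31.6% did. A change of at least 1, which is 2-fold, was seen in 2 members in either response, Rpl7l1 and Rps27l both times, and in 42.1% and 43.8% of all genes. Without the 3 relatives, the SD of the log2 change over members was 0.18 in naive and 0.20 in memory cells, beside 1.47 and 1.50 over all genes. The 10th to 90th percentile of the member changes ran from -0.03 to 0.34 in naive cells, from -0.45 to 0.12 under quantile normalization and from -0.58 to 0.04 on the authors' values. It ran from -0.06 to 2.16 over the 33 members read by a probe outside the very brightest. Of the member probes, 90 of the 136 lay in the top 1% of probes on some array, and the part of signal strength in the spread was not tested.

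**Figure D2:**
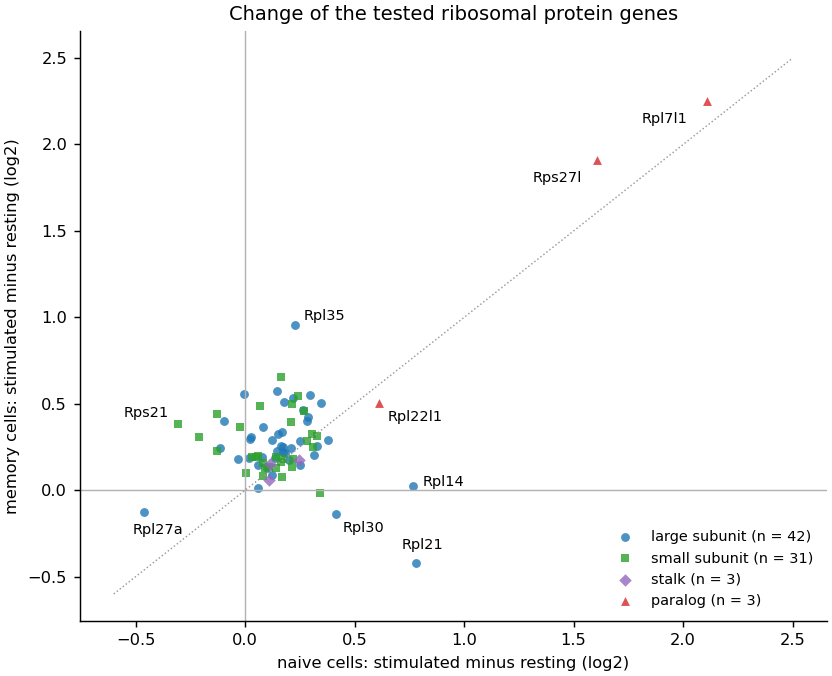
Log2 change on stimulation in naive cells (x axis) and memory cells (y axis) for the 79 tested member genes, one probe a gene, with values on each array's 75th percentile (4 arrays a group; dotted line: equal change). Most members sit within 0.5 of 0, a shift whose sign turns under quantile normalization and on the authors' values, while Rpl7l1 and Rps27l stand apart at over 1.5 in both.

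The stalk of the large subunit, which recruits translation factors, gave no call. Rplp0, its base, changed by 0.11 ± 0.12 (log2, SE) in naive and 0.06 ± 0.12 in memory cells. Rplp1 and Rplp2, the acidic proteins on it, changed by 0.11 ± 0.11 and 0.25 ± 0.11 in naive cells, and the memory values were 0.15 ± 0.11 and 0.18 ± 0.11. All 3 missed the threshold by limma in every comparison.

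In the small subunit, 5 of 31 members rose in naive and 10 in memory cells, with none lower, against 38.2% and 31.3% of all genes that rose. Of 5 small subunit proteins with known second roles, 1 was called, in naive cells. Rps6, the substrate of S6 kinase, changed by 0.22 ± 0.10 in naive and 0.18 ± 0.10 in memory cells. Rps3, also described as a partner of NF-kappaB, changed by 0.17 ± 0.12 and 0.16 ± 0.12. Rpsa, related to the laminin receptor, changed by -0.13 ± 0.15 and 0.22 ± 0.15, and Rps19, the most often mutated gene of Diamond-Blackfan anaemia, by -0.21 ± 0.14 and 0.31 ± 0.14. None of these passed. Rps27a, made as a fusion with ubiquitin, changed by 0.34 ± 0.13 in naive cells (adjusted p = 0.0271), a sign that turned in 2 of 7 scalings, and by -0.02 ± 0.13 in memory cells.

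In the large subunit outside the stalk and the relatives, 10 of 42 members rose and 1 fell in naive cells, and 18 rose in memory cells. Of all genes 38.2% rose and 30.9% fell in naive cells, and 31.3% rose in memory cells. Rpl35, which lines the end of the peptide exit tunnel, had the largest rise in memory cells. Its level was 6.81, 6.82, 6.84 and 7.21 at rest and 7.41, 8.86, 7.75 and 7.48 after stimulation. All stimulated arrays lay above the resting ones, and array number 2 stands far over its group. The change was 0.96 ± 0.25 (adjusted p = 0.00284), and 0.63 without that array. Rpl28, Rpl29 and Rpl15, also large subunit proteins, changed by 0.57 ± 0.13, 0.56 ± 0.13 and 0.55 ± 0.12 in memory cells, with signs that turned on the authors' values. Rpl7a changed by 0.50 ± 0.12 (adjusted p = 0.00198) in memory cells and was above 0 in all 7 scalings and weightings, with a call in 5 of them. Its further probes, fitted by limma on their own, gave 0.66 (adjusted p = 1.6e-05) and -0.04 (adjusted p = 0.758) in memory cells.

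Rpl5 and Rpl11, which bind 5S rRNA and can together hold Mdm2, changed by 0.15 ± 0.10 and 0.17 ± 0.11 in naive cells. In memory cells they changed by 0.23 ± 0.10 (adjusted p = 0.0496) and 0.22 ± 0.11, and Rpl5 had the other sign in 3 of 7 scalings. Rpl13a, known for silencing of inflammatory mRNAs outside the ribosome, changed by -0.03 ± 0.15 and 0.18 ± 0.15. In naive cells the largest rises among large subunit genes were Rpl21 (0.78 ± 0.24, adjusted p = 0.00959), Rpl14 (0.77 ± 0.28, adjusted p = 0.0243), Rpl30 (0.41 ± 0.13, adjusted p = 0.0088) and Rpl10a (0.38 ± 0.13, adjusted p = 0.0155). Rpl14 had levels of 2.07, 2.05, 1.96 and 2.999 in resting and 2.55, 3.25, 2.92 and 3.43 in stimulated naive cells, so the groups overlapped. Rpl10a and Rpl30 turned sign under quantile normalization and on the authors' values. The single member that fell, Rpl27a, changed by -0.46 ± 0.13 (adjusted p = 0.00655) in naive cells, against -0.13 ± 0.13 in memory cells. Another Rpl27a probe gave an opposite result, described with the other probe pairs.

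The 3 relatives of standard ribosomal proteins were the exception. Rpl7l1, a relative of Rpl7 linked to assembly of the large subunit, Rps27l, a relative of Rps27 and a known p53 target, and Rpl22l1, a relative of Rpl22, all rose in both cell types. Rpl22 itself is needed for the development of alpha-beta T cells. Rpl3l, the striated muscle form of Rpl3, was the member not tested: it was well above background on 1 of the 16 arrays, a resting memory array.

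Rpl7l1 (probe at chr17:44903793-44903852, mm7) had log2 levels of 1.23, 1.43, 1.52 and 1.64 in resting naive and 3.71, 3.53, 3.54 and 3.47 in stimulated naive cells. In memory cells the levels were 1.09, 1.35, 1.37 and 1.55 at rest and 3.62, 3.60, 3.72 and 3.43 after stimulation. Resting and stimulated arrays stood about 2 log2 units apart, and the cell types overlapped. The change was 2.11 ± 0.12 in naive (adjusted p = 4.93e-10) and 2.25 ± 0.12 in memory cells (adjusted p = 2.35e-10). A second probe of the gene gave 2.49 ± 0.15 and 2.57 ± 0.15.

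Rps27l (chr9:66979145-66980835, mm7, a probe across a splice junction) had levels of 3.99, 3.98, 3.92 and 4.69 in resting naive and 5.70, 5.76, 5.67 and 5.88 in stimulated naive cells. In memory cells it had 3.61, 3.62, 3.76 and 4.57 at rest and 5.68, 5.74, 5.99 and 5.80 after stimulation. Array number 4 at rest was the highest in both cell types, and still lay below all stimulated arrays. The change was 1.61 ± 0.21 in naive (adjusted p = 4.73e-06) and 1.91 ± 0.21 in memory cells (adjusted p = 7.01e-07). It was called under all 7 other scalings and weightings, at 0.95 to 1.76 in naive and 1.21 to 2.23 in memory cells.

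Rpl22l1 (chr3:28622984-28623043, mm7) rose less. Its levels were 6.96, 6.85, 6.68 and 6.36 in resting naive and 7.16, 7.40, 7.34 and 7.38 in stimulated naive cells. In memory cells they were 6.64, 6.89, 6.80 and 7.10 at rest and 7.06, 7.41, 7.59 and 7.39 after stimulation, where the groups overlapped by 1 array. The changes were 0.61 ± 0.15 (adjusted p = 0.00191) and 0.51 ± 0.15 (adjusted p = 0.00676). The naive change kept its sign under all 7 other scalings and weightings, but was 0.08 at the lowest and was called in 5 of them, and the memory change turned to -0.13 under quantile normalization and -0.15 on the authors' values. A second probe of Rpl22l1 rose by 1.02 ± 0.13 and 1.47 ± 0.13.

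The genes they resemble stayed near the family. Rpl7 changed by 0.25 ± 0.10 and 0.29 ± 0.10, Rps27 by 0.11 ± 0.13 and 0.13 ± 0.13, and Rpl22 by 0.08 ± 0.13 and 0.37 ± 0.13, in naive and memory cells. The log2 difference between relative and partner within each array cancels any scaling by a constant. For Rpl7l1 minus Rpl7 that difference grew by 1.86 ± 0.16 (SE) in naive and 1.97 ± 0.11 in memory cells. For Rps27l minus Rps27 it grew by 1.50 ± 0.15 and 1.78 ± 0.18, and for Rpl22l1 minus Rpl22 by 0.53 ± 0.14 and 0.14 ± 0.09. The Rpl22l1 and Rpl22 difference was also 0.26 ± 0.06 lower in stimulated memory than in stimulated naive cells, without overlap of the arrays. Both results depend on the probe. The other 3 pairs of a Rpl22l1 and a Rpl22 probe gave gains of 1.08, 1.10 and 2.05 in the memory response (exact p = 0.0286 each) and of 1.14, 0.94 and 1.55 in the naive response. After stimulation the same 3 pairs differed between memory and naive cells by 0.14, -0.39 and 0.01 (exact p = 0.514, 0.0286 and 1.0). Among 12 exact two-sided permutation tests (3 pairs, 4 comparisons, 4 arrays a group), 6 reached the smallest possible p of 0.0286, which becomes 0.0571 after adjustment and so misses 0.05. The 6 are the differences just given other than Rpl22l1 minus Rpl22 in the memory response (p = 0.143, exact). Quantile normalization and the authors' values gave a smaller gain for Rps27l minus Rps27, of 1.12 and 1.14 in naive and 1.35 and 1.40 in memory cells.

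**Figure D3:**
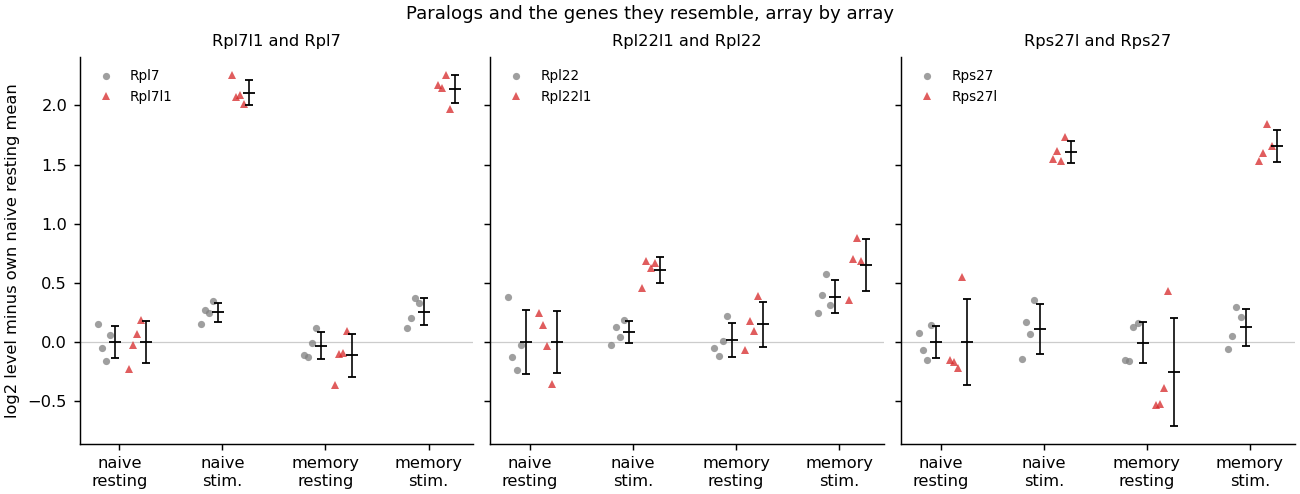
Log2 level of each relative (red triangles) and its partner (grey circles) in the 4 groups, each set on its own mean in resting naive cells; every symbol is 1 array, and black bars are mean ± SD (n = 4). Rpl7l1 and Rps27l rose by 1.61 to 2.25 in both cell types while Rpl7 and Rps27 changed by 0.11 to 0.29, a size whose sign turns under some scalings, as does that of Rpl22l1 in memory cells.

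Few members were called between naive and memory cells. At rest 1 member was higher in memory cells (1.3%) and 0 lower, against 13.9% and 7.64% of all genes. After stimulation 2 were higher (2.5%) and 0 lower, against 10.1% and 14.1%. The response itself, memory minus naive, was higher for 1 member (1.3%) and lower for 2 (2.5%), against 5.89% and 14.2% of all genes. The members' median differences were -0.02 at rest, 0.06 after stimulation and 0.09 between the responses. Centred on the array median instead, 14 of the 79 members were lower in resting memory cells and 38 had a higher response in memory cells. Of all 18424 genes, 4377 and 4834 did so under that centring. Small shifts of the family between cell types thus also rest on the scaling.

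Rpl21, a large subunit protein, was the member called at rest. Its levels were 1.56, 0.56, 0.55 and 0.88 in resting naive and 2.33, 1.25, 1.76 and 1.82 in resting memory cells. After stimulation they were 1.90, 1.86, 1.61 and 1.30 in naive and 1.45, 1.37, 1.53 and 1.11 in memory cells, and both pairs of groups overlapped. The difference at rest was 0.90 ± 0.24 (adjusted p = 0.015), which missed the threshold without resting naive array 2 or 3 or resting memory array 1 (adjusted p = 0.0535, 0.0538 and 0.0553). Memory minus naive response was -1.20 ± 0.34 (adjusted p = 0.0218). The other tested Rpl21 probe, which is dimmer, was not called: it gave -0.15 (adjusted p = 0.50) at rest, -0.17 for the naive response and 0.05 (adjusted p = 0.893) between the responses.

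Rpl29, another large subunit protein, was 5.12, 5.002, 4.96 and 5.12 in stimulated naive and 5.50, 5.57, 5.69 and 5.53 in stimulated memory cells, without overlap. At rest the levels were 5.53, 4.88, 4.87 and 4.94 in naive and 5.04, 4.94, 4.92 and 5.16 in memory cells. The difference after stimulation was 0.52 ± 0.13 (adjusted p = 0.0107), and it was called under all 7 other scalings and weightings of this probe. The other 3 Rpl29 probes gave -0.14, 0.32 and 0.14 for it, and none was called (adjusted p = 0.611, 0.104 and 0.524). The difference between responses was 0.56 ± 0.19 (adjusted p = 0.0484) and was called under 2 of the 7. Rpl30, a large subunit protein, had the opposite difference of response, -0.55 ± 0.18 (adjusted p = 0.0416), from 0.41 in naive and -0.14 in memory cells. Rps21 was the small subunit gene that differed after stimulation: 7.36, 7.51, 7.26 and 7.15 in naive against 7.72, 7.98, 8.16 and 7.75 in memory cells, a gap of 0.58 ± 0.17 (adjusted p = 0.0201). Its difference missed the threshold without any one of stimulated naive arrays 3 and 4 and stimulated memory arrays 2 and 3 (adjusted p from 0.0506 to 0.0632), and the mean of its probes gave -0.11.

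Many members were read by more than 1 probe, and probes of a gene did not always move together. There were 41 members with several tested probes, and 55 probes besides the brightest of each. In a fit of every probe on its own, 29 of the 55 rose and 2 fell in naive cells, and 34 rose and 3 fell in memory cells. Among all probes tested 38.8% rose and 30.4% fell in naive cells, and 33.4% and 37.2% in memory cells. Of the 55, 10 outside the relatives, counted after their values were seen as those that rose at least 2-fold in both cell types, belonged to 10 genes: Rpl11, Rpl13, Rpl27a, Rpl35a, Rps12, Rps13, Rps15a, Rps18, Rps19 and Rps24. Their median change was 2.16 in naive and 2.39 in memory cells, while the brightest probes of the same genes had medians of 0.17 and 0.21.

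As an example, the letters of the 3 probes of Rpl35a, a large subunit protein, are given, 5′ to 3′. Capitals stand where the first and second differ within their 45 shared positions. A probe inside Rpl11 of the same kind and a pair from Rpl29 that overlaps by 33 bases follow.
Rpl35a junction probe: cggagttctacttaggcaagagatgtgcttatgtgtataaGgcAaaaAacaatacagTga
Rpl35a overlapping probe: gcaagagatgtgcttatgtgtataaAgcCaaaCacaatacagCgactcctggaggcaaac
Rpl35a inner probe: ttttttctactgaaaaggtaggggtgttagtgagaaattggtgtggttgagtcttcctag
Rpl11 inner probe: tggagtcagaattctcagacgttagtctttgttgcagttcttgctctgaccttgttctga
Rpl29 first probe: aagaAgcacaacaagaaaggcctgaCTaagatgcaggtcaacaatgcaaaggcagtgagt
Rpl29 second probe: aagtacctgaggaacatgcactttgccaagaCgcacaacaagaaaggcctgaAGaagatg
The first 2 Rpl35a probes differ by G41A, A44C, A48C and T58C, counted from 1 at the 5′ end of the junction probe, whose base stands first. The Rpl29 pair differs by A5C, C26A and T27G, counted in the first probe. The Rpl35a junction probe spans chr16:32732018-32733213 on the plus strand in mm7, far more than its 60 bases, so it joins pieces on both sides of a skipped stretch. The inner probe lies at chr16:32732112-32732171, wholly inside that stretch. For Rpl11 the inner probe lies at chr4:135428479-135428538 (minus strand), inside the stretch skipped by the bright probe at chr4:135428407-135428729. An annotation of this build was not used here. Of the 10 probes, only those of Rpl35a and Rpl11 were placed in this way, and what the others read was not tested.

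The inner probes of Rpl11 and Rpl35a, both from the 10 chosen for their rise, rose more than the junction probes of the same genes. The Rpl11 inner probe had log2 levels of 1.11, 1.64, 1.63 and 1.71 in resting naive and 3.36, 3.92, 3.79 and 3.90 in stimulated naive cells. In memory cells it had 0.60, 1.04, 1.16 and 0.997 at rest and 3.16, 3.32, 3.64 and 3.59 after stimulation. No resting array reached the lowest stimulated one. The change was 2.22 ± 0.18 (adjusted p = 2.09e-08) and 2.48 ± 0.18 (adjusted p = 5.77e-09). The Rpl11 junction probe, in the same cells, was 8.31, 8.17, 8.08 and 8.35 in resting naive and 8.29, 8.44, 8.35 and 8.52 in stimulated naive cells, which overlap. The Rpl35a inner probe changed by 2.39 ± 0.28 and 2.43 ± 0.28, and the junction probe by 0.17 and 0.25. Over the whole array, 42 tested probes of other genes lay inside a stretch skipped by a probe of the same gene. Median changes of 0.67 (naive) and 0.61 (memory) were found there, and in each cell type 28.6% were at least 2-fold higher. Of the 42, 4 were at least 2-fold lower in naive and 5 in memory cells. Over all genes tested, 42.1% and 43.8% changed at least 2-fold in either direction.

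Other rising probes gave the largest changes among member probes. The second probe of Rps12, a small subunit protein, had levels of 0.17, 0.86, 0.79 and 1.38 in resting naive and 3.44, 3.56, 3.55 and 3.79 in stimulated naive cells. In memory cells it went from -0.19, 0.37, 0.38 and 0.66 to 3.15, 3.51, 3.54 and 3.58, again without overlap. The Rpl13 probe among them, for a large subunit protein, changed by 2.75 ± 0.12 in naive (adjusted p = 3.56e-11) and 3.17 ± 0.12 in memory cells (adjusted p = 8.2e-12). That of Rpl27a rose by 2.16 ± 0.18 in naive cells while the brightest Rpl27a probe fell by 0.46, the one member with probes called in opposite directions there. In memory cells Rpl22 was such a member, at 0.37 ± 0.13 for its brightest probe and -0.58 ± 0.15 for the other.

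The 10 probes had mean signals from 20.2 to 3065 scanner units. Of them, 9 were designed from records other than RefSeq mRNAs, by the accession each carries. Of the 16 member probes of this origin that were not the brightest, 11 were at least 2-fold higher in naive and 10 in memory cells. The same kind of probe in all other genes numbered 2915, of which 25.6% and 21.4% were at least 2-fold higher. These classes were formed after the values were seen, so they carry no test. At rest, memory minus naive was -0.58 to -0.40 in all 10. In the fit of every probe 3 of them passed, those of Rpl11, Rpl13 and Rps24 (adjusted p = 0.0338, 0.0244 and 0.0352), where 6.76% of all probes were lower and 11.6% higher.

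**Figure D4:**
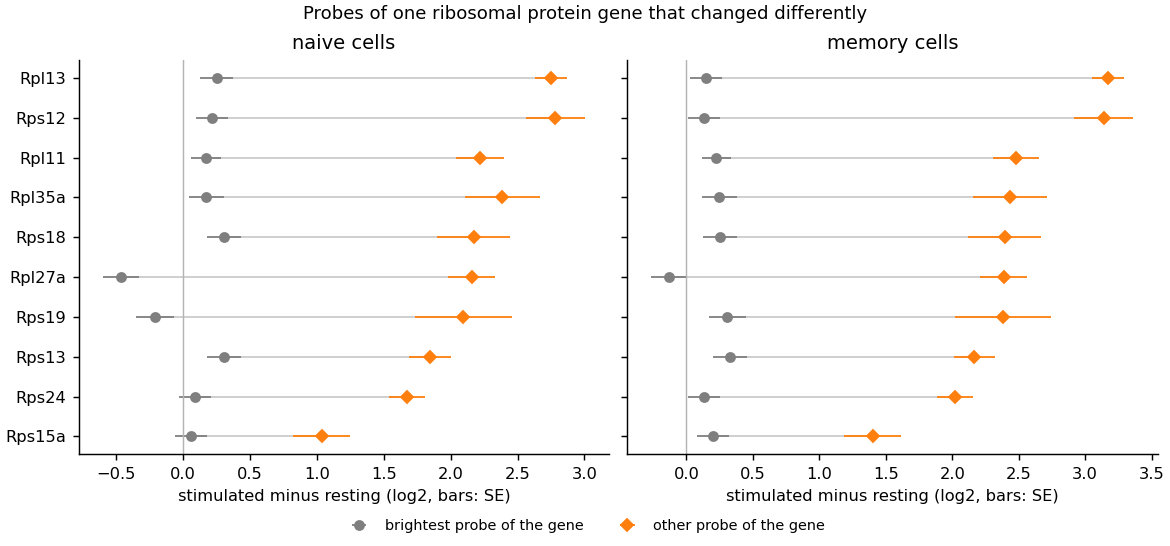
Log2 change on stimulation in naive and memory cells (x axis) of 10 member genes (y axis), for the brightest probe of each gene (grey circles) and for another probe of the same gene (orange diamonds); bars are SE from limma over 16 arrays. The orange probes rose by 1.04 to 3.17, and the grey probes changed by -0.46 to 0.32, small changes whose sign turns with the scaling for some genes.

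Some probes, chosen here because they passed the test of the difference of responses, told the cell types apart. In the fit of every probe, the response of 8 of 134 member probes was lower in memory than in naive cells and that of 0 was higher, against 11.3% and 4.65% of all probes tested, so such calls were a smaller share of the member probes than of all probes. One was the Rpl21 probe, and the other 7 were further probes of Rpl29, Rpl35a, Rpl7a, Rps21 (a pair), Rps3a1 and Rps4x. The brightest Rpl29 probe had the opposite difference, 0.56.

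The Rps21 pair shares 42 bases and its members gave the same order of groups. In the dimmer one, levels were 4.22, 3.45, 3.45 and 2.73 in resting naive and 4.96, 4.83, 4.87 and 4.90 in resting memory cells. After stimulation they were 4.96, 5.03, 4.94 and 4.90 in naive and 4.13, 4.32, 4.55 and 4.16 in memory cells. Resting memory and stimulated naive arrays thus lay together and above the rest. The response (log2) was 1.50 ± 0.22 in naive and -0.60 ± 0.22 in memory cells, a difference of -2.09 ± 0.31 (adjusted p = 0.000267). The brighter one of the pair gave -0.88 ± 0.21 (adjusted p = 0.00907), and the brightest Rps21 probe, at another position, gave 0.69 ± 0.24 (adjusted p = 0.0539 at the gene level).

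The largest such difference among member probes was that of a further Rps4x probe, at -2.40 ± 0.29 (adjusted p = 4.49e-05). Its levels were -3.57, -3.98, -4.10 and -3.23 in resting naive, -2.37, -2.81, -2.99 and -2.76 in resting memory, -3.08, -2.78, -3.09 and -2.99 in stimulated naive and -4.60, -4.24, -4.00 and -4.75 in stimulated memory cells. The files give it no genome position, and it was designed from a record other than a RefSeq mRNA. It is also dim. On the stimulated memory arrays the lowest spots called well above background lay at -5.56, -5.62, -5.39 and -5.44. Every stimulated memory array lay below all resting memory and stimulated naive arrays. Second probes of Rps3a1 and Rpl7a, the first a small and the other a large subunit protein, gave -1.18 ± 0.22 (adjusted p = 0.00194) and -0.87 ± 0.17 (adjusted p = 0.00229). In the Rpl35a overlapping probe printed above, 4 letters away from the junction probe in the shared stretch, the difference was -0.61 ± 0.20 (adjusted p = 0.045), while the junction probe gave 0.07. The first Rpl29 probe printed above gave -0.77 ± 0.25 (adjusted p = 0.0452) and the second, which differs by 3 letters in the overlap, gave -0.27.

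**Figure D5:**
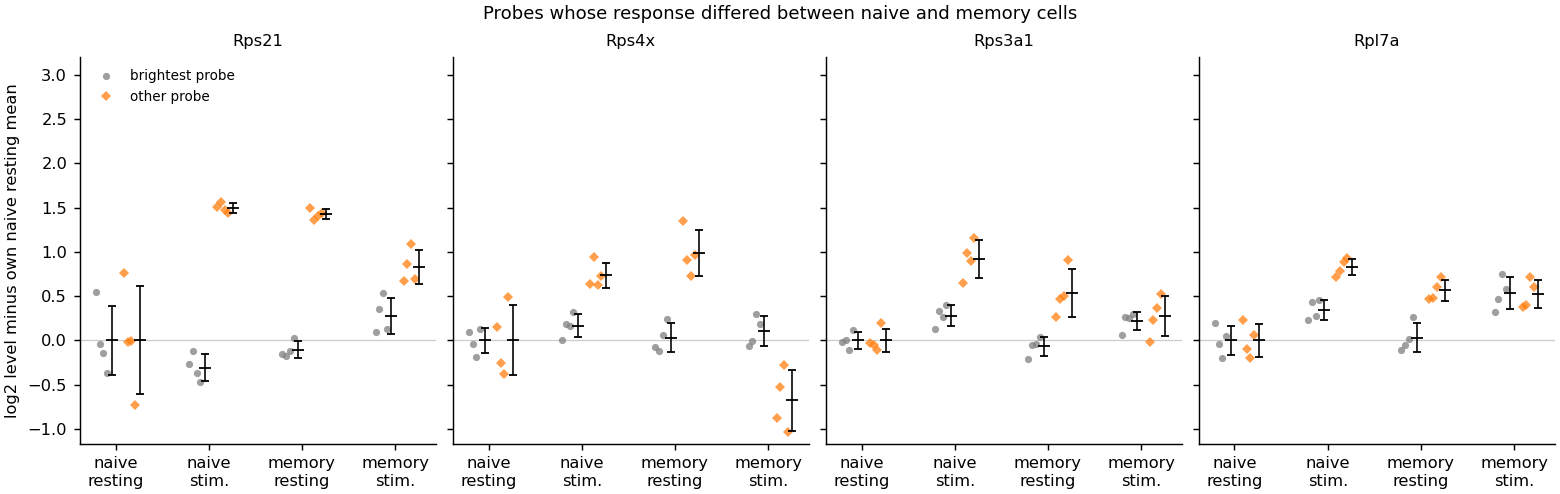
Log2 level of the brightest probe (grey circles) and of another probe (orange diamonds) of Rps21, Rps4x, Rps3a1 and Rpl7a in the 4 groups, each set on its own mean in resting naive cells; symbols are arrays and black bars mean ± SD (n = 4). The orange probes are higher in stimulated than in resting naive cells by 0.73 to 1.50 and change by -1.67 to -0.04 in memory cells.

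Genes that work with the ribosomal proteins gave a mixed picture. Fau, which encodes a small subunit protein fused to a ubiquitin-like protein, had a change of -0.08 in naive cells and of 0.18 in memory cells, and neither passed. Of 18 tested transcripts with a TOP tract that are not ribosomal proteins, 11 rose and 2 fell in naive cells, and 11 rose in memory cells. Beside these, 38.2% of all genes rose and 30.9% fell in naive cells, and 31.3% rose and 39.1% fell in memory cells. Npm1, a nucleolar chaperone, rose by 1.24 and 1.03, Hnrnpa1, an RNA-binding protein, by 1.05 and 1.22, and Nap1l1, a histone chaperone, by 1.02 and 1.60. The 2 that fell in naive cells, named after their values were seen, were Eif3f, an initiation factor subunit (-0.41, adjusted p = 0.0137), and Eef2, the translocation factor (-0.34, adjusted p = 0.0354). Under quantile normalization 5 of the 18 rose and 3 fell in naive cells, 7 rose and 7 fell in memory cells, and the list's median turned from 0.46 and 0.43 to -0.02 and -0.03. On the authors' deposited values 5 rose and 5 fell, and 7 rose and 8 fell. Eif4b, an initiation factor, and Gas5, a host of small nucleolar RNAs, had responses that were higher in memory cells by 0.81 (adjusted p = 0.00129) and 0.63 (adjusted p = 0.0129). Tpt1, the translationally controlled tumour protein, was called the other way, at -0.63 (adjusted p = 0.0317).

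Of 17 factors that mature the subunits, 16 rose in each cell type, with medians of 1.93 and 1.94, and 15 to 17 rose under every other scaling. As background to this and the following lists, 38.2% of all genes rose and 30.9% fell in naive cells. In memory cells 31.3% rose and 39.1% fell. Mrto4, which prepares the stalk site, rose by 3.90 and 4.14. Rrs1 and Rpf2, which bring in Rpl5 and Rpl11 with 5S rRNA, rose by 3.28 and 3.62 and by 3.19 and 3.54. The 1 that did not pass, named after its value was seen, was Sbds, which releases Eif6 from the large subunit (0.23 and 0.25). Of 12 tested mTOR and LARP regulators, 5 rose and 3 fell in naive cells and 6 rose and 3 fell in memory cells. Larp1, which binds TOP mRNAs, rose by 2.35 and 2.55, and Eif4ebp1, the inhibitor of cap binding that mTOR phosphorylates, by 2.51 and 3.40. Tsc1, an upstream brake on mTOR, fell by 1.53 and by 1.12. Of 9 factors that bind ribosomal protein promoters, 6 rose in naive cells, and 5 rose and 1 fell in memory cells. Gabpb1, a GABP subunit, rose by 2.55 and 2.99, and Myc by 4.72 and 6.02.

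Some features followed the members' mean closely over the 16 arrays. The highest Pearson r among genes that are not members were 0.993 and 0.983 for features named LOC243642 and LOC670811 in the files, 0.966 for Eif3h, an initiation factor subunit, 0.964 for NAP102738-1 and 0.957 for LOC670529. The lowest were -0.959 for AK054099, -0.933 for ENSMUST00000023327 and -0.925 for AK086065. These are descriptions over arrays that share groups and scaling, with no test.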

How the data were processed

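In all, 16 1-colour Agilent arrays were used. Per the file headers, the authors extracted Cy3 intensities with Agilent Feature Extraction 9.5.3.1, which gave background-subtracted processed signals; probe positions are in mm7. The value table deposited by the authors, whose scale and centring are not stated, had columns of median 149 that followed the scanner intensities (r from 0.975 to 0.984) and entered as an alternative. Here, spots of a probe were averaged, and log2 processed signal minus the array's 75th percentile was fitted with limma 3.58.1 (R 4.3.3) over the 4 groups, with Benjamini-Hochberg adjustment over all genes and a threshold of 0.05. A gene was read by its brightest tested probe. Symbols were updated through RefSeq for 32719 probes and kept from the files for 8455. The fit was tested on simulated data. Named genes were the stalk, the relatives and their partners, 8 members with known second roles, up to 8 called members per direction and comparison, and members with probes called in opposite directions; a few genes are not reported here. Members and gene lists were chosen with earlier results of these data known. Nothing states whether same-numbered arrays share a purification, so p-values measure the spread between these arrays.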

Additional observations from a re-analysis of the deposited data

Results flagged for a closer look

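Among 28 named members and 4 groups, and the family's share and median, 120 groups of 4 arrays were screened for a sample far from the others, a screen that chance trips in about 5% of groups. It picked 5: Rpl14 at 2.999 and Rps27l at 4.69 on resting naive array 4, Rps27l at 4.57 and Rpl35 at 7.21 on resting memory array 4 and Rpl29 at 5.53 on resting naive array 1. All 5 lay above the other 3 arrays of their group.

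The response to stimulation differed between memory and naive cells by the interaction test for Rpl21 (-1.20), Rpl29 (0.56) and Rpl30 (-0.55). It also differed for further probes of Rps4x (-2.40), Rps21 (-2.09 and -0.88), Rps3a1 (-1.18), Rpl7a (-0.87), Rpl29 (-0.77) and Rpl35a (-0.61). For Rpl29 and Rps21 the brightest probe and these further ones had opposite signs. Leaving out single arrays took Rpl29 past the threshold, out of the calls, in 11 of 16 cases and Rpl30 in 12 of 16, at 0.41 to 0.63 and -0.65 to -0.48.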

How the results depend on the processing

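Rpl7l1 and Rps27l kept their rise, and their call, in both cell types under 7 other scalings and weightings, and Rpl21 in naive cells; the other called changes of named members in the responses lost their call under some of these, and the cause was not tested. The counts of members listed here as moved are those that changed most in proportion, and smaller moves are left out. Among those left out, the mean of a gene's probes gave 43 higher in the memory response. With no filter, 14 were higher in the naive response. Normexp gave 15 and 34 higher in the naive and memory responses, and median centring 15 in the naive response. With the 75th percentile taken over probes detected on all arrays, the counts that moved were 4 higher and 4 lower in the naive response, 8 higher, 4 lower and a median of -0.0155 in the memory response, 2 higher in the resting difference, 0 higher in the difference of responses. With the 75th percentile taken over probes detected on all arrays, signs turned in the memory response for Rpl5 (-0.0325). With array weights, the counts that moved were 59 higher in the naive response, 58 higher in the memory response, 6 higher and 1 lower in the resting difference, 19 higher and 3 lower in the stimulated difference, 10 higher and 4 lower in the difference of responses. On the authors' deposited values, the counts that moved were 4 higher, 34 lower and a median of -0.12 in the naive response, 3 higher, 40 lower and a median of -0.19 in the memory response, 3 higher and 1 lower in the resting difference, 6 higher and 5 lower in the stimulated difference, 4 higher and 7 lower in the difference of responses. On the authors' deposited values, signs turned in the naive response for Rpl10a (-0.27), Rpl15 (-0.0767), Rpl22 (-0.47), Rpl28 (-0.35), Rpl30 (-0.16), Rpl7a (-0.11), Rps27 (-0.19), Rps27a (-0.12), Rps6 (-0.19), and in the memory response for Rpl10a (-0.48), Rpl11 (-0.17), Rpl13a (-0.39), Rpl15 (-0.0958), Rpl22 (-0.29), Rpl22l1 (-0.15), Rpl28 (-0.0229), Rpl29 (-0.20), Rpl5 (-0.17), Rpl7 (-0.13), Rplp1 (-0.20), Rplp2 (-0.23), Rps27 (-0.19), Rps3 (-0.20), Rps6 (-0.40), Rpsa (-0.43), and in the stimulated difference for Rpl5 (-0.24). Counted over every probe, the counts that moved were 47 higher and 3 lower in the naive response, 64 higher and 3 lower in the memory response, 7 higher and 4 lower in the resting difference, 4 lower in the stimulated difference, 0 higher and 8 lower in the difference of responses. With the mean of a gene's probes, the counts that moved were 32 higher and 0 lower in the naive response, 1 lower in the memory response, 3 higher in the resting difference, 1 higher and 1 lower in the stimulated difference, 0 higher and 5 lower in the difference of responses. With the mean of a gene's probes, signs turned in the naive response for Rpl27a (0.85), Rpl29 (0.35), Rps19 (0.65), Rps21 (0.61), and in the memory response for Rpl22 (-0.11), Rpl27a (1.13), and in the resting difference for Rps21 (0.65), and in the stimulated difference for Rps21 (-0.11), and in the difference of responses for Rpl29 (-0.10), Rps21 (-0.76). Centred on the array median, the counts that moved were 75 higher and a median of 0.56 in the memory response, 14 lower in the resting difference, 24 higher in the stimulated difference, 38 higher, 1 lower and a median of 0.43 in the difference of responses. Centred on the array median, signs turned in the memory response for Rps27a (0.30). Centred on the members' own median (chosen after seeing the data), the counts that moved were 6 higher and 6 lower in the naive response, 12 higher and 4 lower in the memory response, 2 higher in the resting difference, 1 lower in the stimulated difference, 0 higher in the difference of responses. Centred on the members' own median, signs turned in the memory response for Rpl5 (-0.0109). With no filter on low signal, the counts that moved were 0 higher and 1 lower in the difference of responses. With normexp background correction (chosen after seeing the data), the counts that moved were 2 higher in the resting difference, 2 higher in the difference of responses. Under quantile normalization, the counts that moved were 3 higher, 28 lower and a median of -0.11 in the naive response, 4 higher, 24 lower and a median of -0.11 in the memory response, 3 higher in the resting difference, 6 higher and 2 lower in the stimulated difference, 3 higher in the difference of responses. Under quantile normalization, signs turned in the naive response for Rpl10a (-0.18), Rpl15 (-0.18), Rpl22 (-0.41), Rpl30 (-0.12), Rpl7 (-0.0021), Rps27a (-0.11), and in the memory response for Rpl10a (-0.37), Rpl13a (-0.26), Rpl15 (-0.0938), Rpl22 (-0.26), Rpl22l1 (-0.13), Rpl29 (-0.10), Rpl5 (-0.0223), Rpl7 (-0.0569), Rplp0 (-0.22), Rps6 (-0.28), Rpsa (-0.43). Centred on spike-ins, the counts that moved were 0 lower in the naive response, 68 higher and a median of 0.52 in the memory response, 2 higher in the resting difference, 24 higher and a median of 0.36 in the stimulated difference, 0 higher and 0 lower in the difference of responses. Without the very brightest member probes, the counts that moved were 3 lower in the naive response, 3 lower and a median of 0.48 in the memory response, 3 higher and 4 lower in the resting difference, 3 lower in the stimulated difference, 4 lower in the difference of responses. Without the very brightest member probes, signs turned in the naive response for Rpl22 (-0.53), Rps21 (1.50), and in the memory response for Rpl22 (-0.58), Rps21 (-0.60), and in the resting difference for Rpl22l1 (-0.54), Rps21 (1.42), and in the stimulated difference for Rps21 (-0.67), and in the difference of responses for Rps21 (-2.09). Leaving out 1 array at a time gave 5 to 27 members higher, 1 to 2 lower and a median of 0.12 to 0.20 in the naive response, 20 to 44, 0 to 1 and 0.19 to 0.32 in the memory response, 0 to 3, 0 to 0 and -0.10 to 0.03 in the resting difference, 1 to 7, 0 to 0 and 0.01 to 0.11 in the stimulated difference, and 0 to 4, 1 to 2 and 0.04 to 0.15 in the difference of responses. With 3 against 4 arrays the exact tests cannot go below 0.0571. Same-numbered arrays correlated at -0.21 to 0.58 (24 pairs, median 0.16), with 16 above 0.1, so the number was not taken as a pairing; as a hint from the data, 13 of 16 arrays had their highest mean correlation with arrays of their own number. With the replicate number as a block, 20 members were higher in the naive and 38 in the memory response, 1 was lower in the stimulated difference and 3 were higher in the difference of responses. The default normexp fit was far off on 3 stimulated arrays, whose parameters were set to the median of the others, and the normexp values given are those of this repaired fit. Without the very brightest member probes only 33 members were left, with 18 higher and a median of 0.38 in the naive and 21 higher in the memory response. Signal over background limits the least bright probes.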
